A study of Mus musculus with 12 samples.

Results

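Of 20738 genes measured in whole mouse embryonic lungs, 5 are described here: Snhg16, Zfas1, Lime1, Plekhg4 and Gm3696. These genes were lower after 6 h of blocked FGF10 signalling than in control lungs, and were higher again after 9 h. They were chosen by these measured values, as the genes that passed the test (adjusted p at most 0.05) both as lower in LOF 6 h than in control and as higher in LOF 9 h than in LOF 6 h. Nothing in those contrasts is therefore read as support. These 5 genes made up 0.0241% of all genes, and the opposite order, higher at 6 h and lower again at 9 h, was met by 1 gene (0.00482%), Vmn1r118, a vomeronasal receptor gene.

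Each of the 4 groups held 3 arrays, and all lungs were of strain C57bl/6J. LOF (loss-of-function) lungs carried Rosa26rtTAtet(O)solubleR2b, in which doxycycline switches on a soluble FGFR2b that captures FGF ligands, and were taken 6 h or 9 h after doxycycline. GOF (gain-of-function) lungs carried Rosa26rtTAtet(O)fgf10 and were taken 9 h after doxycycline. The control lungs are wild-type and without treatment in the labels. The methods of the study instead describe the controls of the LOF lungs as littermates with the transactivator alone, from mothers given doxycycline. By the study these controls were taken at both times, more of them at 6 h than at 9 h. The time of each control array is not given. Which description holds was not settled, so a difference between LOF lungs and control, at 6 h or 9 h, may also hold a difference in doxycycline, transactivator or time. The rtTA transactivator was expressed from the ubiquitous Rosa26 locus, and the methods, which describe only the LOF lungs, give doxycycline by injection into the pregnant females and RNA from single lungs at the early branching stage; litters were not given.

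FGF10 is a growth factor of the lung mesenchyme that acts on FGFR2b in the epithelium and drives branching. Snhg16 and Zfas1 are long non-coding RNAs of a particular kind, the small nucleolar RNA (snoRNA) host genes. Their introns are processed into snoRNAs, which guide chemical modification of ribosomal RNA, while the spliced exons are exported and, in many such genes, are short-lived because translation of their short reading frames triggers nonsense-mediated decay.

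The remaining 3 genes code for proteins. Lime1 encodes a transmembrane adaptor of lymphocytes that binds Src-family kinases. Plekhg4 encodes a guanine nucleotide exchange factor with a pleckstrin homology domain. Gm3696 is a predicted protein-coding gene with no role that can be given here. In the mouse reference GRCm38.p6, Snhg16 lies on chromosome 11 and spans Snord1c, Snord1b and Snord1a. Zfas1 lies on chromosome 2, starts within the span of the coding gene Znfx1 and spans Snord12. Lime1 lies on chromosome 2 within the span of Zbtb46, Plekhg4 on chromosome 8 between Slc9a5 and Kctd19, and Gm3696 on chromosome 14 within the span of Gm31035. Long non-coding RNAs were 2 of these 5 genes and 3.65% of all genes measured.

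All 5 had a window in the RefSeq promoter table (250 bases before the annotated start and 50 from it, GRCm38.p6). The window of Snhg16, the gene with the smallest p at 6 h, is shown because its annotated start coincides with that of the gene and no other annotated gene overlaps it; capitals mark the 50 bases from the start, read on the plus strand of chr11:116671410-116671709.
Snhg16: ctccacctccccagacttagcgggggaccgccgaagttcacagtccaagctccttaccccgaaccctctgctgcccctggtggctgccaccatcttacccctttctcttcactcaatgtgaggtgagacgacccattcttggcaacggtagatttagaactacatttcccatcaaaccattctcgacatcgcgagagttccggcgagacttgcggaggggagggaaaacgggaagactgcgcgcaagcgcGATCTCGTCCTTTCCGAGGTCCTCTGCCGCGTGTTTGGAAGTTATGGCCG
The longest run of C and T in those 50 bases was 8 bases long, and 17.4% of all 32851 promoter windows held a run at least as long in the same stretch. In none of the 5 genes did a run of C and T that opens with C begin at the start that the window uses. Runs opening with T were not counted there. The windows of Plekhg4 and Gm3696 lie inside the gene and not at its outermost annotated start. Of 8 motifs searched on both strands (the E-box CACGTG, the ETS site CCGGAAGT, the cAMP response element TGACGTCA, the AP-1 site TGACTCA, the TATA box TATAAA, the CCAAT box, the GC box GGGCGG and the palindromic NRF1 motif), none was found in the window of Snhg16, Plekhg4 or Gm3696. The Lime1 window held 1 CCAAT, found in 37.4% of windows, and the Zfas1 window held 9 GGGCGG matches, some close together, where 35.7% of windows held at least 1. Zfas1 had a G and C content of 83%, above 99.7% of windows, and the others ranged from 51% in Lime1 to 70.3% in Gm3696 beside a median of 52.7%. The 5 windows thus shared no motif of the 8.

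Levels are log2 signals. Every array had a median of 2.98, and all 5 genes were above it in the control lungs. Snhg16 measured 9.45, 9.59 and 9.66 in the control arrays. In the LOF 6 h arrays it measured 7.19, 7.24 and 7.02. It measured 9.09, 9.10 and 9.37 in LOF 9 h and 9.64, 9.73 and 9.61 in GOF 9 h. The LOF 6 h arrays were therefore below the other 9 by a gap of 1.85, wider than the whole range of those 9 arrays, 0.64. The LOF 9 h arrays also lay below all control and GOF arrays, as they did in 3.89% of all genes.

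The control arrays of Zfas1 measured 10.58, 10.61 and 10.90, its LOF 6 h arrays 9.75, 9.50 and 9.69, its LOF 9 h arrays 10.92, 10.69 and 10.88, and its GOF arrays 10.82, 10.77 and 10.65. The 9 arrays outside LOF 6 h overlapped freely, and the gap below them was 0.83.

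Lime1 measured 8.45, 8.19 and 8.53 in control, 6.50, 6.44 and 6.87 in LOF 6 h, 8.23, 8.25 and 8.38 in LOF 9 h, and 8.77, 8.20 and 8.43 in GOF 9 h. The LOF 6 h arrays lay 1.33 below the lowest of the others, which again overlapped. Lime1 was the only one of the 5 with a second feature on the array. That feature measured 7.91, 7.98 and 7.95 in control and 6.35, 6.08 and 5.95 in LOF 6 h. Over the 12 arrays the features correlated with r = 0.965, a value that includes the step at LOF 6 h by which the gene was chosen. Both features showed the same order of groups at 6 h, with differences of -1.79 and -1.82.

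Plekhg4 measured 4.91, 4.76 and 5.62 in control, 2.93, 2.67 and 1.93 in LOF 6 h, 5.95, 5.22 and 4.97 in LOF 9 h, and 5.25, 4.39 and 4.39 in GOF 9 h. Its LOF 6 h arrays lay under the array median, in a range where many features carry little signal. Gm3696 measured 5.52, 4.75 and 5.30 in control, 2.84, 2.37 and 3.38 in LOF 6 h, 6.05, 5.33 and 5.46 in LOF 9 h, and 4.68, 4.95 and 4.93 in GOF 9 h. The gaps below the other 9 arrays were 1.45 for Plekhg4 and 1.30 for Gm3696. The deposited table gives no detection call, so the size of these differences is uncertain.

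**Figure D1:**
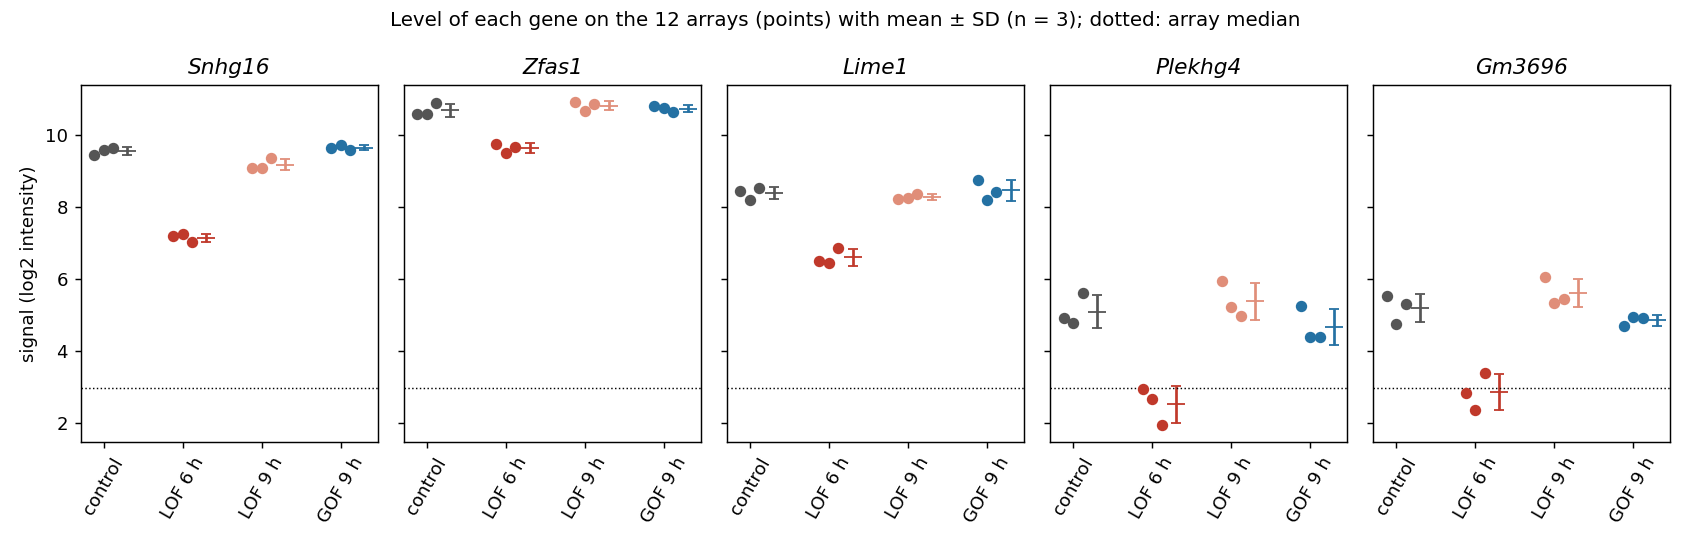
Log2 signal (vertical axis) of each of the 5 genes on the 12 arrays, by group; points are arrays, bars the mean ± SD of 3 arrays, and the dotted line the array median of 2.98. In every panel the 3 LOF 6 h points lie below the other 9, by gaps of 0.83 in Zfas1 to 1.85 in Snhg16.

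Having all 3 LOF 6 h arrays below all 9 others was met by 336 genes, 1.62% of those with complete values, and the reverse by 343 (1.65%). For comparison, 393 genes (1.90%) had the LOF 9 h arrays lowest and 81 (0.391%) the control arrays lowest. A drop of at least 1 log2 unit below the means of both control and LOF 9 h, added to the first condition, left 51 genes (0.246%). The 5 genes are among these 51.

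The first comparison asked what had changed 6 h after the soluble receptor was switched on. The differences from control were -2.42 ± 0.13 (log2, SE, n = 3 arrays per group) for Snhg16, -1.05 ± 0.14 for Zfas1, -1.79 ± 0.18 for Lime1, -2.59 ± 0.37 for Plekhg4 and -2.33 ± 0.29 for Gm3696. On a linear scale this was 5.34-fold lower for Snhg16, 2.07-fold for Zfas1, 3.45-fold for Lime1, 6.01-fold for Plekhg4 and 5.02-fold for Gm3696. Over all genes 10 were called lower, 0.0482%, and 5 of these were the chosen genes, by their choice. Their adjusted p-values in limma ranged from 5.87e-05 for Snhg16, the smallest of all genes, to 0.0473 for Plekhg4. Just outside the choice stood Firre, a long non-coding RNA of the X chromosome, with a difference of -2.08, an adjusted p of 0.0423 at 6 h and one of 0.0553 between 9 h and 6 h, followed by Rhox8, Egfl7, Meg3 and Mamdc4.

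In this comparison only Snhg16 was called in every one of the 10 other settings and without each of the 12 arrays in turn. With the replicate number as a block, only Snhg16 and Lime1 were called. With the estimate of spread taken from control and LOF 6 h arrays alone, 1 of the 5 genes was called, and leaving out 1 array left 1 to 5 called, the fewest without control replicate 3 or LOF 6 h replicate 1, and all 5 only without GOF 9 h replicate 1.

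The second comparison set LOF 9 h against LOF 6 h. The levels at 9 h were higher by 2.03 ± 0.13 for Snhg16, 1.18 ± 0.14 for Zfas1, 1.68 ± 0.18 for Lime1, 2.87 ± 0.37 for Plekhg4 and 2.75 ± 0.29 for Gm3696. Genes called higher were 10 in all, 0.0482%, among them these 5 by their choice. With the spread taken from the compared arrays alone 0 of the 5 were called, and with the heart or the Y-linked covariate 1 was. Leaving out 1 array left 1 to 5, the fewest without LOF 6 h replicate 1 or any one of the 3 LOF 9 h arrays. LOF 9 h against control, whose arrays had also been used in choosing, gave none of the 5 as called, where 0.0530% of genes were called lower and 0.0193% higher. Snhg16 had the lowest difference from control, -0.38 (95% interval -0.67 to -0.10, adjusted p = 0.472). The intervals of the other 4 all included 0, being -0.17 to 0.44 for Zfas1, -0.50 to 0.29 for Lime1, -0.54 to 1.11 for Plekhg4 and -0.23 to 1.07 for Gm3696, so that differences of up to about these sizes could not be told from none.

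**Figure D2:**
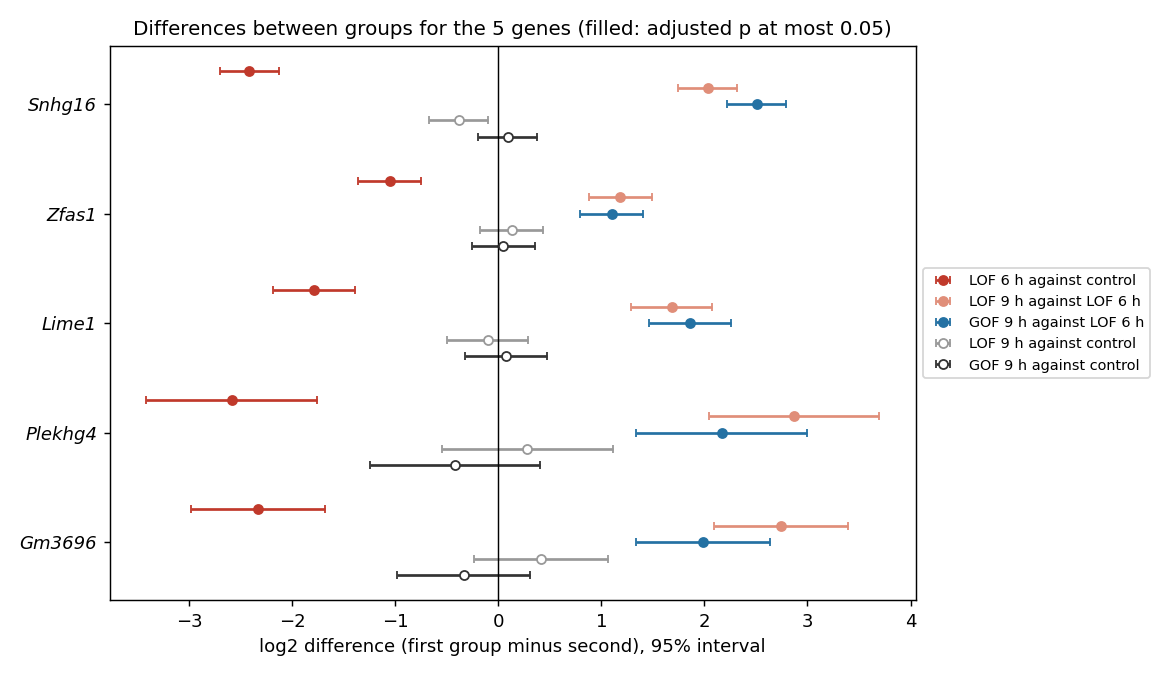
Log2 difference between 2 groups (horizontal axis, first group minus second) with its 95% interval for each of the 5 genes in 5 comparisons; filled points have an adjusted p of at most 0.05. LOF 6 h lies apart from control, LOF 9 h and GOF 9 h in every gene. The differences of LOF 9 h and GOF 9 h from control run from -0.42 for Plekhg4 in GOF to 0.42 for Gm3696 in LOF. Of their intervals only that of Snhg16 in LOF 9 h, -0.67 to -0.10, leaves out 0.

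The GOF arrays had no part in the choice, although the LOF 6 h and control arrays they are set against did. Against LOF 6 h, GOF lungs were higher in all 5 genes, by 2.51 ± 0.13 for Snhg16 (adjusted p = 4.04e-05, limma), 1.10 ± 0.14 for Zfas1 (adjusted p = 0.0161), 1.86 ± 0.18 for Lime1 (adjusted p = 0.00441), 2.17 ± 0.37 for Plekhg4 (adjusted p = 0.0454) and 1.99 ± 0.29 for Gm3696 (adjusted p = 0.0268). Of all genes, 0.212% were called higher in this comparison. Since the same low LOF 6 h values enter it, this count is not separate evidence for the low level. With the mean level of the heart markers as a covariate, 0 of the 5 were called (Snhg16 then had a difference of 2.27 and an adjusted p of 0.0996), and with the spread taken from the compared arrays alone, 1 was called. Leaving out 1 array left 2 to 5, the fewest without LOF 6 h replicate 1, LOF 6 h replicate 2 or GOF 9 h replicate 1.

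Against control, the GOF arrays gave values on which the choice did not bear through LOF 6 h. The differences were 0.09 for Snhg16 (95% interval -0.19 to 0.38), 0.05 for Zfas1 (-0.26 to 0.36), 0.08 for Lime1 (-0.32 to 0.47), -0.42 for Plekhg4 (-1.25 to 0.41) and -0.34 for Gm3696 (-0.99 to 0.31). None of the 5 was called by limma and none had an unadjusted p under 0.05, where 0 genes of all were called and 2.82% lay lower and 2.33% higher at an unadjusted p under 0.05. Changes of more than 0.38 up or 0.26 down in Snhg16 and Zfas1 lay outside both intervals, while for Plekhg4 and Gm3696 the intervals spanned more than 1 log2 unit. No rise of any of the 5 genes was thus detected in GOF lungs, and no FGF target of the 12 listed was called there either.

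The order of levels was not the same in every gene. In Snhg16 it ran GOF 9 h, control, LOF 9 h, LOF 6 h, and of neighbours in that order LOF 9 h and control differed with an unadjusted p of 0.0139 that did not pass the adjustment. In Zfas1, Plekhg4 and Gm3696 the LOF 9 h mean was the highest, and in Lime1 the GOF mean. In those 4 genes the arrays of each group overlapped those of the next in order, LOF 6 h aside; in Gm3696 the LOF 9 h arrays lay above the GOF arrays without overlap, as in 8.55% of all genes.

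**Figure D3:**
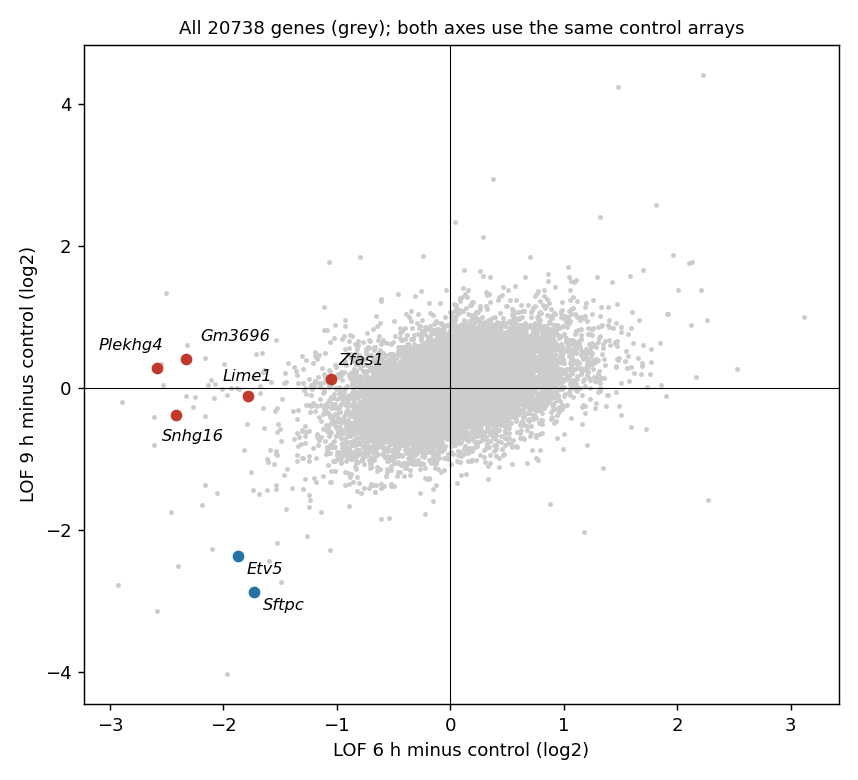
Log2 difference from control at 6 h (horizontal axis) and at 9 h (vertical axis) of LOF lungs, for all genes (grey), the 5 genes (red) and, in blue, Etv5 and Sftpc, an FGF-responsive transcription factor gene and an alveolar surfactant gene. Both axes subtract the same control arrays; the red points lie left of 0 and between -0.38 and 0.42 on the vertical axis, whereas Etv5 and Sftpc lie low on both.

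The level of FGF targets was set beside the labels. This is not an independent check, since the list was made with earlier results of these data known. Etv5, Sp5 and Sftpc are also in the study's own FGF10 signature, drawn by p-value from its arrays of blocked and control lungs. Etv5 was lower than control at 6 h by 1.87 ± 0.16 (adjusted p = 0.00310) and at 9 h by 2.36 (adjusted p = 0.000639), so that it was low at both times. Of the 12 FGF targets listed, 8 were below 0 at 6 h and 1, Etv5, was called, while 3 were lower and 1, Il17rd (0.41), higher at an unadjusted p under 0.05, with a median of -0.32. Over all genes 4.56% were lower and 4.80% higher at that p, and 0.0482% were called lower. At 9 h 10 of the 12 were below 0, 2 were called (Etv5 and Sp5) and 7 were lower at an unadjusted p under 0.05, beside 0.0530% and 4.17% of all genes, with a median of -0.60. Sftpc showed differences of -1.73 at 6 h (adjusted p = 0.132) and -2.86 at 9 h (adjusted p = 0.00905), in a list of 13 lung epithelial markers with 0 called at 6 h, 3 lower and 3 higher at an unadjusted p under 0.05, and a median of -0.04.

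In GOF lungs the same FGF targets gave no check of the label. Against control 0 of the 12 were called by limma, 2 (Sp5 and Spred2) were higher at an unadjusted p under 0.05, where 2.33% of all genes were, the median was 0.07, and Etv5 differed by 0.05 (adjusted p = 0.999). Fgf10 itself measured 8.12, 8.12 and 7.34 in GOF 9 h and 7.43, 7.94 and 7.91 in control, a difference of 0.10 ± 0.24 (adjusted p = 0.999), with overlapping groups. Whether its array feature lies in the part of the gene that the transgene carries is not given in the sources used here, so this level cannot check the GOF label.

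Among themselves, the 5 genes had pairwise correlations over the 12 arrays of 0.855 to 0.963, with a median of 0.922 over 10 pairs. These values describe the step at LOF 6 h that the choice required. Over the 9 arrays outside LOF 6 h the correlations ran from -0.75 for Snhg16 with Gm3696 to 0.64 for Zfas1 with Plekhg4, with a median of 0.19. Deviations from the group means gave a median of 0.20. Apart from the shared step, then, no common profile was seen. With only 9 arrays, and Plekhg4 and Gm3696 dim, a weak one could have been missed.

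Among 13658 genes above the array median, the closest profiles to the scaled mean of the 5, over 12 arrays, belonged to Egfl7 (r = 0.969), an endothelial secreted factor, Rnf6 (r = 0.959), a ubiquitin ligase, Igflr1 (r = 0.945), Meg3 (r = 0.943), an imprinted non-coding RNA, Crebzf (r = 0.942), Frs2 (r = 0.937), Rsrc2 (r = 0.937) and Camkk2 (r = 0.930). These r values restate the step at LOF 6 h that chose the 5 genes, and none of the 8 was called at 6 h. FRS2 is the docking protein that links FGF receptors to downstream kinases. Its levels were 9.35, 9.31 and 9.44 in control, 9.01, 9.06 and 9.18 in LOF 6 h, 9.34, 9.36 and 9.44 in LOF 9 h and 9.40, 9.37 and 9.40 in GOF 9 h, a difference at 6 h of -0.28 that was not called (adjusted p = 0.452). Egfl7 measured 12.57, 12.42 and 12.81 in control against 11.83, 11.85 and 11.77 in LOF 6 h. It was the only one of 10 endothelial markers lower at 6 h at an unadjusted p under 0.05; 5 of the 10 were above 0, 0 were called and their median was 0.02. Of the single genes, Snhg16 was closest to Rnf6 and Atf4, Zfas1 to Rnf6 and Egfl7, Lime1 to Frs2 and Egfl7, Plekhg4 to Igflr1 and Crebzf, and Gm3696 to Zfp932 and Rabgap1. Rnf6 measured 10.40, 10.40 and 10.45 in control and 10.03, 9.81 and 9.87 in LOF 6 h.

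Other genes of the same kinds were examined next, in lists made with earlier results of these data known. Of the non-coding snoRNA host genes listed beside Snhg16 and Zfas1, 7 were measured, of which 5 were below 0 at LOF 6 h and 0 were called, with 2 lower at an unadjusted p under 0.05, where 4.56% of all genes were. The median was -0.26, beside 0.03 over all genes. The list had also held Mir17hg, which hosts miRNAs and is left out of these counts; with it they were 6 of 8 below 0, 3 lower and a median of -0.47. Mir17hg measured 6.95, 6.19 and 6.62 in control and 4.51, 2.96 and 4.69 in LOF 6 h, a difference of -2.53 ± 0.63 (adjusted p = 0.247). Snhg3 measured 9.59, 9.40 and 9.74 in control and 8.73, 8.69 and 8.46 in LOF 6 h (difference -0.95, adjusted p = 0.330).

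In these genes and in Dancr (-0.74, adjusted p = 0.554) the LOF 6 h arrays lay below all control arrays, as in 7.51% of all genes. Snhg17 had a difference of -0.68 (adjusted p = 0.475). Gas5, the host gene best known for its control by translation, had a difference of -0.26 ± 0.31 (adjusted p = 0.850), with LOF 6 h arrays at 10.71, 10.24 and 10.33 that overlapped control at 10.98, 10.36 and 10.71. Snhg11, Snhg12 and Snhg14 were at or below 3.84 in control and LOF lungs, near the array median. No other host gene was called, and whether the change of Snhg16 or Zfas1 differed from theirs was not tested.

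Of coding hosts of snoRNAs, 24 were measured, 0 were called and 1 had an unadjusted p under 0.05, Eif4a2 at -0.76 (adjusted p = 0.330). Proteins of the snoRNA particles gave 0 called of 16, 2 lower at an unadjusted p under 0.05, and a median of -0.06. Factors of nonsense-mediated decay gave 0 called of 13, 1 lower at an unadjusted p under 0.05, and a median of -0.04. Translation genes with a terminal pyrimidine tract gave 0 of 19 by either measure and a median of 0.06. Transcripts known to respond to decay and to stress gave 0 called of 16, 2 lower and 1 higher at an unadjusted p under 0.05, and a median of -0.03. In this list Atf4, a transcription factor of the integrated stress response, had a difference of -0.82 ± 0.13 (adjusted p = 0.0626), and its target Trib3 one of 1.03 ± 0.24 (adjusted p = 0.231). Short-lived immediate early transcripts gave 0 called of 16, 1 lower and 1 higher at an unadjusted p under 0.05, and a median of 0.18. These lists thus held no gene called by limma at 6 h.

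Further long non-coding RNAs on the list were measured for 9 genes, of which 8 were below 0 at 6 h, 1 was called and 3 (33.3%) were lower at an unadjusted p under 0.05, beside 0.0482% and 4.56% of all genes. Firre measured 4.82, 4.59 and 4.53 in control, 2.36, 1.97 and 3.36 in LOF 6 h and 4.56, 4.53 and 4.46 in LOF 9 h. Meg3 measured 11.43, 10.69 and 10.82 in control, 9.01, 8.78 and 8.69 in LOF 6 h and 11.71, 11.07 and 11.44 in LOF 9 h, a difference of -2.16 at 6 h (adjusted p = 0.0989) and of 2.58 between 9 h and 6 h (adjusted p = 0.0455). Mirg, of the same imprinted locus, had a difference of -1.65 at 6 h (adjusted p = 0.146). The list's median was -0.87 at 6 h and 0.94 between 9 h and 6 h. Xist, whose levels by array are given below, is counted in this list and among the 8 below 0. Its differences were -2.50 at 6 h (adjusted p = 0.555) and 3.84 between 9 h and 6 h (adjusted p = 0.294). The LOF 6 h arrays lay below the other 9 in 4 of the 9 RNAs, a condition met by 1.62% of all genes. The list was made with earlier results of these data known, so its shares are a description and not a test. Firre, Meg3 and Mirg were among the 4 and are named because they had the smallest p-values of the list at 6 h.

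**Figure D4:**
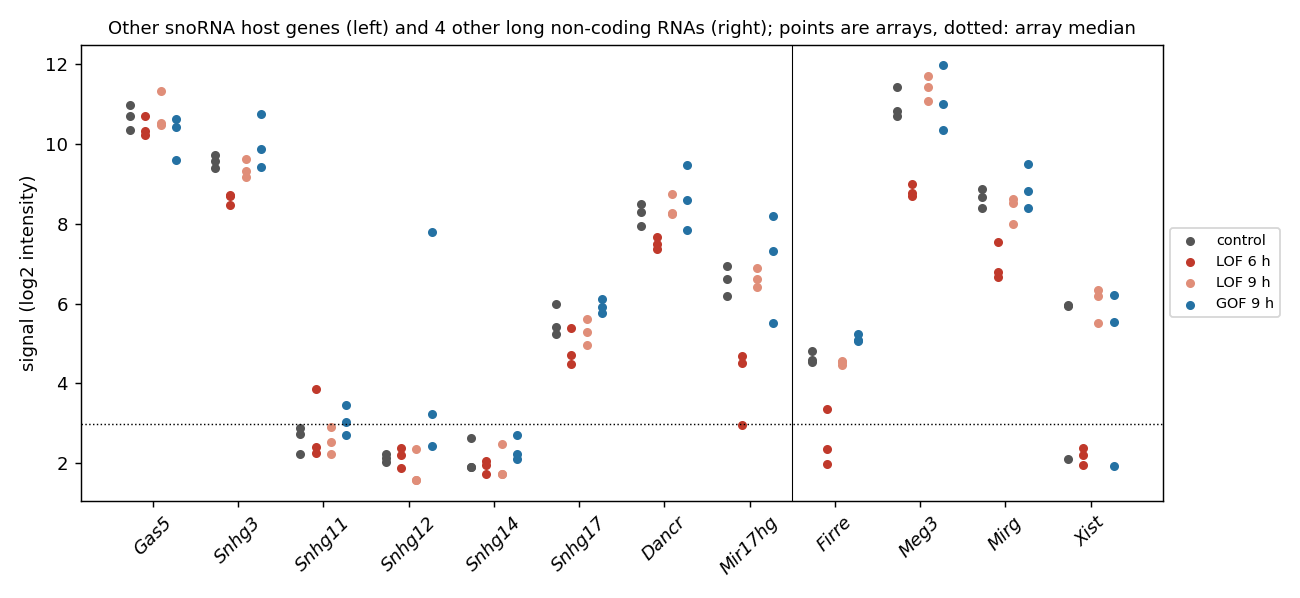
Log2 signal on each array (points), by group. Left of the line are the 7 measured snoRNA host genes besides Snhg16 and Zfas1, and Mir17hg, which hosts miRNAs. Right of it are the 4 of 9 other long non-coding RNAs with the smallest p at 6 h. The dotted line is the array median. LOF 6 h points lie under control in Snhg3, Dancr, Mir17hg, Firre, Meg3 and Mirg, but overlap control in Gas5 and in Xist, which is low in 5 arrays.

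Taking all annotated long non-coding RNAs above the array median apart from the 2 chosen, 195 genes, 24 (12.3%) were lower and 7 (3.59%) higher at 6 h at an unadjusted p under 0.05, with a median of -0.09. Protein-coding genes above the array median numbered 13210, of which 671 (5.08%) were lower and 706 (5.34%) higher, with a median of 0.03. Between 9 h and 6 h the non-coding RNAs showed 9 (4.62%) lower and 32 (16.4%) higher, beside 5.95% and 5.63% of the protein-coding genes above the array median. The 2 comparisons share the LOF 6 h arrays, so the second does not stand apart from the first. At the adjusted threshold 1 of the 195 was called at 6 h. Without the condition on level the contrast was weaker: of 754 long non-coding RNAs 7.03% were lower and 3.58% higher at 6 h, with a median of -0.04, and 3.45% were lower and 6.10% higher between 9 h and 6 h, beside 5.27% and 4.88% of all genes.

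For the coding genes, relatives of Plekhg4 among the Dbl-family exchange factors gave 29 measured genes, 0 called, 2 higher at an unadjusted p under 0.05, and a median of 0.07. Vav1 (0.68, adjusted p = 0.318) and Arhgef28 (0.67, adjusted p = 0.320) were these 2. Transmembrane adaptors and Src-family partners like Lime1 gave 13 measured genes, 11 below 0, 0 called and 0 at an unadjusted p under 0.05, with a median of -0.12. Lat, the adaptor of T-cell receptor signalling, had a difference of -0.75 ± 0.36 (adjusted p = 0.563). It was dim, at 3.73, 2.95 and 3.24 in control and 2.52, 1.92 and 3.23 in LOF 6 h. Lymphocyte markers gave 11 measured genes, 0 called, 1 lower and 3 higher at an unadjusted p under 0.05, and a median of -0.03. The mean level lay under the array median in 7 of the 13 adaptor genes and 5 of the 11 lymphocyte markers. The directions in these 2 lists are therefore uncertain.

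The nearest measured genes on the chromosome set Gm3696 apart from the rest. None of these 20 neighbours, 2 on each side of each gene, was called at 6 h, and 5 had an unadjusted p under 0.05, where 4.56% of all genes were lower and 4.80% higher. Of these 5, 3 were neighbours of Gm3696, 1 was Cygb beside Snhg16, and 1 was Zgpat beside Lime1, which was higher (0.33). Znfx1, which Zfas1 overlaps at its start, measured 8.27, 8.36 and 7.96 in control and 8.53, 7.73 and 8.18 in LOF 6 h, a difference of -0.05 ± 0.22. Zbtb46, whose span holds Lime1, had a difference of 0.67 (adjusted p = 0.609), and Slc9a5 and Kctd19 on either side of Plekhg4 had differences of -0.18 and -0.03. Over the 16 neighbours of Snhg16, Zfas1, Lime1 and Plekhg4 the median was -0.02, and the LOF 6 h arrays lay below all control arrays for 1 of them, Cygb (-0.63, adjusted p = 0.447), while 7.51% of all genes met this.

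All 4 neighbours of Gm3696 had their 3 LOF 6 h arrays below all 9 others, a condition that 1.62% of all genes met. They are also predicted genes, and not adjacent ones, since 2, 33, 5 and 9 annotated genes lie between Gm3696 and Gm10406, Gm6337, Gm3715 and Gm5797. Gm10406 measured 9.04, 8.58 and 8.88 in control, 7.51, 7.52 and 7.88 in LOF 6 h, 9.03, 8.81 and 8.90 in LOF 9 h and 9.49, 8.24 and 8.85 in GOF 9 h, a difference at 6 h of -1.20 ± 0.27 (adjusted p = 0.219). Gm6337 had one of -0.94 (adjusted p = 0.269), Gm3715 one of -1.27 (adjusted p = 0.473) and Gm5797 one of -0.82 (adjusted p = 0.556). Their LOF 6 h values ran from 6.72 to 8.32, above the array median. Whether these predicted genes are near-identical copies that share probe signal was not tested, and Gm3696 is therefore uncertain as a single gene.

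**Figure D5:**
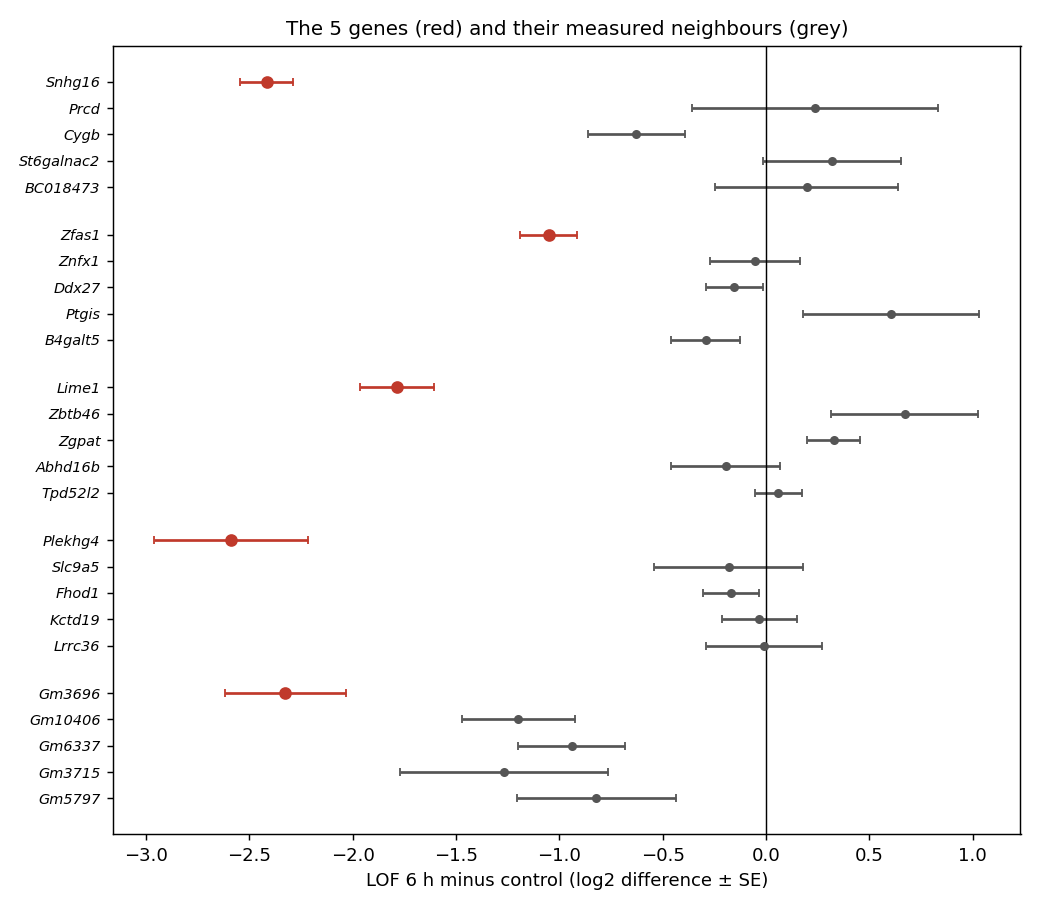
Log2 difference between LOF 6 h and control ± SE (horizontal axis) for each of the 5 genes (red) and the 2 measured genes on either side of it (grey). Neighbours of Snhg16, Zfas1, Lime1 and Plekhg4 lie between -0.63 and 0.67, whereas the 4 neighbours of Gm3696 lie between -1.27 and -0.82.

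Other measures also differed between LOF 6 h and the other groups. Xist, the RNA of the inactive X chromosome, was under the array median on all 3 LOF 6 h arrays, on 1 control array and on 1 GOF array, and on 0 LOF 9 h arrays. Within the LOF arrays Xist level and time thus coincide, so they cannot be told apart in LOF 9 h against LOF 6 h. The Y-linked gene Eif2s3y was at 7.59 to 8.56 on 4 of these 5 arrays and at 3.31 on LOF 6 h replicate 1, where neither marker was high. The other low-Xist arrays are given as values, with control replicate 2 among the arrays that the choice had used. On control replicate 2 Snhg16 measured 9.59, Zfas1 10.61, Lime1 8.19, Plekhg4 4.76 and Gm3696 4.75, and on GOF replicate 1 they measured 9.64, 10.82, 8.77, 5.25 and 4.68. In a fit with the mean level of the Y-linked genes as covariate, the differences at 6 h ran from -2.57 for Plekhg4 to -1.04 for Zfas1 and 2 of the 5 genes, Snhg16 and Lime1, kept an adjusted p under the threshold. This covariate averages Eif2s3y with Uty and Kdm5d, which were dim on every array, reaching only 3.85 and 3.63. It does not place LOF 6 h replicate 1 with the other low-Xist arrays, so it adjusts for sex only in part.

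Of the 13 heart markers 0 were called at 6 h, 4 were higher at an unadjusted p under 0.05 (4.80% of all genes were), and the median was 0.69. Their summed linear signal per array was 10840 to 19711 in LOF 6 h, 5051 to 11718 in control, 6116 to 10321 in LOF 9 h and 2332 to 4395 in GOF 9 h. Erythroid markers gave 0 called of 10, 3 higher at an unadjusted p under 0.05, and a median of 0.56. Their summed signal was 76929 to 87625 in LOF 6 h and 61567 to 84191 in control. Neural markers gave 0 called of 8, 7 above 0, 2 higher at an unadjusted p under 0.05, Ret (0.98) and Sox10 (1.28), and a median of 0.36, with a summed signal of 570.1 to 744.2 in LOF 6 h and 542.0 to 601.9 in control. Macrophage markers gave 0 called of 11, 10 above 0, 2 higher, Csf1r (0.44) and C1qb (0.58), and a median of 0.21, with a summed signal of 2495 to 2693 in LOF 6 h and 1952 to 2219 in control. Markers of heart, blood, nerve and macrophages thus lay mostly above control at 6 h. Smooth muscle markers gave 7 of 9 above 0 with a median of 0.11, mesenchymal markers 9 of 12 below 0 with a median of -0.04, and mesothelial markers 3 of 6 below 0 with a median of -0.07, with 0, 1 and 0 at an unadjusted p under 0.05. With the heart markers as a covariate the differences of the 5 genes at 6 h were -2.31 for Snhg16, -0.99 for Zfas1, -1.71 for Lime1, -2.82 for Plekhg4 and -2.51 for Gm3696, and Snhg16 alone was called (adjusted p = 0.00218). In whole lungs, fewer cells of a type and less RNA per cell cannot be told apart. The part of sex and of heart tissue in the calls that these fits lost, and that of blood, nerve or macrophages in the result, was not tested further.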

How the data were processed

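RNA of 12 mouse lungs was amplified, labelled with Cy3 and hybridised to one-colour arrays. The authors corrected spot signals with NormExp on negative controls, took logarithms and normalized by quantiles, and deposited log2 intensity for 62976 features, unaveraged; the submitters' notes name limma without a version. Features were named by accession, symbol or synonym (31465 with 1 symbol), and 20738 genes were each represented by their feature with the highest mean. Snhg16 and Zfas1 appear on the platform under Riken names. Zfas1 was matched by synonym.

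A linear model with group means was fitted over the 12 arrays (limma 3.58.1, R 4.3.3; moderated statistics, 8 residual and 2.27 prior degrees of freedom). Adjusted p-values are two-sided Benjamini-Hochberg values over all 20738 genes of a comparison, with a threshold of 0.05; a gene past it is called. The median SE of a log2 difference was 0.265, and only 3 arrays per group limit the precision. The fit was tested on simulated data.

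The 5 genes and all lists were chosen with earlier results of these data known. Named besides the 5 were the 2 measured genes on each side, all genes listed as non-coding snoRNA hosts, up to 4 genes per list with the smallest p at 6 h, the 8 genes closest in profile (and 2 per gene), and the 5 next in the order of the choice. Vmn1r118 was named after its values were seen, and so were the levels by Xist. Alternatives were median and loess scaling, the mean of features, a level filter, variance settings, array weights, the compared groups alone, the replicate number, Y-linked and heart covariates, and leaving out each array. Promoter windows came from RefSeq (GRCm38.p6). The array files name no genome build, so start and end of genes are not given; chromosomes, overlaps and the printed window are those of the reference.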

Additional observations from a re-analysis of the deposited data

Results flagged for a closer look

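The level of each of the 5 genes in LOF lungs differed between 9 h and 6 h by the test of that difference, which is also the comparison that chose them. The LOF 9 h level minus the LOF 6 h level was 2.03 on the log2 scale for Snhg16, 1.18 for Zfas1, 1.68 for Lime1, 2.87 for Plekhg4 and 2.75 for Gm3696. Whether this is a change in the effect of soluble FGFR2b was not tested. Each array correlated with the mean of the other arrays of its group at r = 0.9793 to 0.9857. Fits without each array are given below, and no formal test for single arrays far from the rest was made.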

How the results depend on the processing

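Under 10 other settings and without each of 12 arrays, the differences of the 5 genes at 6 h and between 9 h or GOF and 6 h kept their direction throughout, while the number called moved. For LOF 6 h against control, 15 genes were called in all and 5 of the 5; with genes above the 50th percentile only, 29 and 3 (Plekhg4 and Gm3696 are then not tested), with trend and robust variance 122 genes, with array weights 24, with the compared groups only 3 and 1, with the Y-linked covariate 2 of the 5, with the heart covariate 1 and 1, and without 1 array 2 to 39 and 1 to 5. For LOF 9 h against LOF 6 h, 13 genes and 5 of the 5 became 116 and 3, 161 genes, 36 genes, 0 and 0, 1 and 1, and 1 and 1 under the same settings in that order, and 1 to 49 and 1 to 5 without 1 array. For GOF 9 h against LOF 6 h, 76 and 5 became 223 and 3 above the 50th percentile, 331 genes with trend and robust variance, 5 and 1 with the compared groups only, 0 and 0 with the heart covariate, and 7 to 64 and 2 to 5 without 1 array. For LOF 9 h against control, 15 genes became 55, 104, 4 and 9 (50th percentile, trend, compared groups, heart covariate) and 7 to 33 without 1 array. For GOF 9 h against control, 0 genes became 3 with trend and robust variance. In these last 2 comparisons none of the 5 genes was called under any setting. The cause of these moves was not tested, apart from fewer genes or arrays where a setting removes them.

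Near 0 some signs turned. Plekhg4 in LOF 9 h against control ranged from -6.125e-05 without LOF 9 h replicate 1 to 0.545 without control replicate 3. In GOF 9 h against control the heart covariate gave -0.03406 for Snhg16, -0.01714 for Zfas1 and -0.009247 for Lime1; without 1 array Zfas1 ranged from -0.006638 (control replicate 1) to 0.1527 (control replicate 3), and Lime1 from -0.07486 (GOF 9 h replicate 1) to 0.2092 (GOF 9 h replicate 2), with -0.02223 without control replicate 2.

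Replicate numbers were not used as a pairing in the main fit. Of 18 same-numbered pairs of arrays, 3 correlated above 0.1 in their deviations (median 0.04, other pairs -0.03). The 6 pairs of replicate 1 stood at 0.0840 to 0.103 and replicate 1 correlated below 0 with every other number, but control replicate 3 correlated best with an array of another number. Replicate 1 arrays thus shared some of their deviation, and its source was not tested. With the replicate number as a block, 6 genes and 2 of the 5 (Snhg16 and Lime1; Gm3696 then had an adjusted p of 0.0521, Zfas1 and Plekhg4 0.0834) were called for LOF 6 h against control, 5 and 3 for LOF 9 h against LOF 6 h, and 39 genes for GOF 9 h against LOF 6 h. Detection calls were not among the values used, so how far the dim Plekhg4 and Gm3696 lie above background at 6 h is not known.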

Other observations

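Of the 31511 array features without a gene name, 2 were called lower at LOF 6 h than in control and the same 2 were called higher at LOF 9 h than at LOF 6 h. In 399 of these features (1.27%) the 3 LOF 6 h arrays lay below the other 9. Vmn1r118, the gene with the opposite order, measured 1.84, 1.88 and 1.73 in control, 3.31, 3.05 and 2.99 in LOF 6 h, 1.72, 1.52 and 2.03 in LOF 9 h, and 1.76, 1.54 and 2.08 in GOF 9 h. All of these levels lie near or under the array median of 2.98, where the signal is dim. Rhox8, a homeobox gene of the X chromosome and second outside the choice, measured 12.70, 12.95 and 12.78 in control and 10.85, 10.91 and 10.85 in LOF 6 h (adjusted p = 0.0913).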
